A study of Mus musculus with 48 samples.

Results

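The hnRNP proteins and the polypyrimidine tract-binding (PTB) proteins are RNA-binding proteins that choose splice sites in nuclear RNA, and 10 of their genes were followed here in mouse embryonic stem cells. The genes were Hnrnpa2b1, Hnrnpd, Hnrnpdl, Hnrnph1, Hnrnpk, Hnrnpl, Hnrnpu, Ptbp1, Ptbp2 and Ptbp3, taken by symbol from a count table of 20171 genes, and all 10 had 1 row each and passed the filter on low counts in every comparison. The study measured RNA by sequencing in whole lysate (input) and in what magnetic HA beads recovered from it (immunoprecipitate, IP). Such an RNA immunoprecipitation asks which RNAs travel with an HA-tagged protein, here Tnrc6a, the GW182 protein that links Argonaute to the enzymes that silence mRNA.

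There were 4 genotypes. The control was untagged GFP_5xT71BS, a 129S6/SvEvTac line with a GFP reporter bearing Trim71 binding sites and stably transfected FLAG-Cas9::T2A::Blasticidin. The HA-Tnrc6a line (GFP_5xT71BS, HA-AVI-Tnrc6a) carries the tag on Tnrc6a. The Ago2 knockout adds Ago2-/- to that tagged line, and the Upf1 knockout adds Upf1-/- to it. The reporter was thus shared by all groups, and the untagged cells were the only group without the tag. Cells were kept on gelatin with LIF, the cytokine that holds stem cells undifferentiated. How many clones stand behind a genotype is not given in the sources used here, and the replicates are dishes, so p-values measure the spread between dishes of a line. Each genotype had 6 inputs and 6 IPs, 48 libraries in all, from experiments 3 and 4 of the study. Column headings number the libraries 1 to 6 without the experiment. Libraries 1 to 3 and libraries 4 to 6 were taken as 2 runs because their depths did not overlap, and the headings do not say which run is which experiment.

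Total counts were 15383953 to 19595405 in the inputs and 11471544 to 18344233 in the IPs of libraries 1 to 3, and 26458831 to 37179105 and 25724085 to 73845953 in libraries 4 to 6. Ago2 mRNA was lower in Ago2 knockout inputs than in HA-Tnrc6a inputs, with a log2 fold change of -1.21 ± 0.027 (SE) and an adjusted p of 6.3e-34 in edgeR. Upf1 mRNA was higher, not lower, in the inputs labelled Upf1 knockout, at 0.58 ± 0.028, so the mRNA does not show the loss and directions below refer to that label. Upf1 acts in nonsense-mediated decay (NMD). A list of 12 known targets and factors of that pathway had 12 of 12 members higher in those inputs. Over all genes 29.5% passed as higher. The median log2 change of the list was 0.79, against -0.018 over all genes. The list was chosen with earlier results of these data known, so its count is not independent of them. Tnrc6a RNA was recovered by the beads from tagged cells, with a log2 gain over untagged cells of 7.77 ± 0.18, and the protein was not measured here. The gain was 8.67 ± 0.27 in libraries 1 to 3 and 6.87 ± 0.25 in libraries 4 to 6. The runs differed (edgeR adjusted p = 0.024), as they did for 0.365% of all genes. The 8 stem cell markers summed to 6399.9 to 8089 CPM (the count scaled to a common library size) in every genotype. Among other markers, fibroblast genes summed to 20.5 to 36.7 CPM and trophoblast genes to 4.80 to 15.1 CPM. Gata4, Gata6 and Sox17 of primitive endoderm summed to 4.52 to 5.01 CPM in Ago2 knockout inputs, 13.4 to 20.2 in HA-Tnrc6a, 6.82 to 22.8 in untagged and 7.22 to 41.3 in Upf1 knockout inputs. The fibroblast marker Col1a2 was at 0 in 2 inputs.

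PTB proteins bind pyrimidine-rich tracts beside exons and mostly repress their inclusion. Ptbp1 is the form of most dividing cells, Ptbp2 is the neuronal relative, and Ptbp3 is another relative known from blood cells. Ptbp1 is known to make cells skip an exon of Ptbp2 mRNA, which leaves a transcript that NMD removes, and several hnRNP genes hold down their own mRNA by splicing it into forms that NMD removes. Counts here are per gene, so forms that NMD removes and forms it spares were not told apart.

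The PTB genes were Ptbp1 (ENSMUSG00000006498, chr10:79854432-79864435), Ptbp2 (ENSMUSG00000028134, chr3:119718741-119784647) and Ptbp3 (ENSMUSG00000028382, chr4:59471868-59549378), with positions here and below on GRCm38.p6. Hnrnpd (ENSMUSG00000000568, chr5:99955935-99979130), also called AUF1, binds AU-rich elements that mark mRNAs for decay, and Hnrnpdl (ENSMUSG00000029328, chr5:100033577-100039936) is its close relative. Hnrnph1 (ENSMUSG00000007850, chr11:50375257-50386528) binds G-rich splicing elements and Hnrnpl (ENSMUSG00000015165, chr7:28808546-28822268) binds CA repeats. Hnrnpk (ENSMUSG00000021546, chr13:58391132-58403343) binds C-rich RNA, Hnrnpa2b1 (ENSMUSG00000004980, chr6:51460434-51470048) is a core protein of the hnRNP particle, and Hnrnpu (ENSMUSG00000039630, chr1:178321108-178338891) is a scaffold of nuclear RNA and chromatin. Annotated neighbours overlap 5 of the genes, namely Enoph1 with Hnrnpdl, Mir7-1 and Rmi1 with Hnrnpk, Cox20 with Hnrnpu, E130317F20Rik, Plppr3 and Mir6910 with Ptbp1, and Gm42127 and 4930524J08Rik with Hnrnpd. The kit keeps strand, whether the counting used it is not given in the sources used here, and the values of these 5 genes are uncertain to that extent.

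The 250 bases upstream of a RefSeq start site are shown for the members with the largest fall and the largest rise in Upf1 knockout inputs, so that the genes with opposite changes can be compared. Both runs of bases are read 5′ to 3′ on the minus strand of GRCm38.p6, from chr3:119783389-119783638 for Ptbp2 and chr5:100039223-100039472 for Hnrnpdl, and both lie inside the annotated span of the gene. Capitals mark GC boxes, GGGCGG or its complement CCGCCC.
Ptbp2: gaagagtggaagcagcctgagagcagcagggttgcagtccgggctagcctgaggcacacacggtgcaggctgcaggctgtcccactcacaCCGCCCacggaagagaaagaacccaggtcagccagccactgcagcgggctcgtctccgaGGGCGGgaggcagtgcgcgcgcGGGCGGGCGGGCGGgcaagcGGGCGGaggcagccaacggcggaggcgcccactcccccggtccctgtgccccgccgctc
Hnrnpdl: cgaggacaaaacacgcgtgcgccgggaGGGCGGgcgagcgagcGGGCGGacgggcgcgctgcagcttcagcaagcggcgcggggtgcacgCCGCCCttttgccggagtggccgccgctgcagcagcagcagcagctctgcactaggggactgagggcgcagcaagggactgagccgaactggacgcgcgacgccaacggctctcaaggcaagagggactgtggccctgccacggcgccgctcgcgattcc
Ptbp2 held 6 GC box matches, overlapping ones included, and Hnrnpdl held 3. A GC box occurred in 35.7% of all 32851 windows of 300 bases (250 before a start and 50 after it), CCAAT or ATTGG in 37.4%, and TATAAA or TTTATA in 13.6%. Of the 14 windows of the 9 members with an entry, 11 held a GC box, 8 held CCAAT and 0 held TATAAA. Hnrnph1 had 5 of these windows, each with a GC box, and Hnrnpa2b1 had 2, so the windows do not stand for separate genes. G and C made up 74.7% of the window of Ptbp2 and 72.7% of that of Hnrnpdl, against a median of 52.7% over all windows. GC-rich upstream sequence was present in both the member that was lower and the member that was higher in those inputs.

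Per kilobase of gene length, Ptbp2 was the lowest of the 10 genes and Ptbp3 the next lowest in every genotype and both runs. In HA-Tnrc6a inputs of libraries 1 to 3, Ptbp2 stood at 2.53 ± 0.112 CPM per kb and Ptbp3 at 12.9 ± 0.137 (mean ± SD, n = 3), against 119.9 ± 3.27 for Ptbp1. Hnrnpk led at 149 ± 4.09, and Hnrnpa2b1 at 117 ± 4.66, Ptbp1 and Hnrnpu at 113 ± 6.43 followed within each other's spread. Hnrnpl at 86.8 ± 2.67 and Hnrnph1 at 72.4 ± 1.73 lay below these, and Hnrnpd at 61.2 ± 2.66 and Hnrnpdl at 59.9 ± 0.663 did not differ beyond their spread. In libraries 4 to 6, Hnrnpk at 138 ± 1.40, Hnrnpu at 134 ± 3.95, Ptbp1 at 131 ± 2.65 and Hnrnpa2b1 at 127 ± 3.04 CPM per kb led in that order, each neighbour within about the spread of the next. Ptbp2 therefore stood far below Ptbp1 in these cells. Hnrnpdl was the eighth of the 10 in HA-Tnrc6a inputs of libraries 1 to 3 and the fifth in the corresponding Upf1 knockout inputs, where it stood at 82.8 ± 2.94 CPM per kb. In libraries 4 to 6 it had rank 8 in HA-Tnrc6a inputs at 53.1 ± 0.407 CPM per kb. There it had rank 7 in Upf1 knockout inputs at 64.3 ± 0.722, within the spread of Hnrnph1 at 64.4 ± 1.44.

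**Figure D1:**
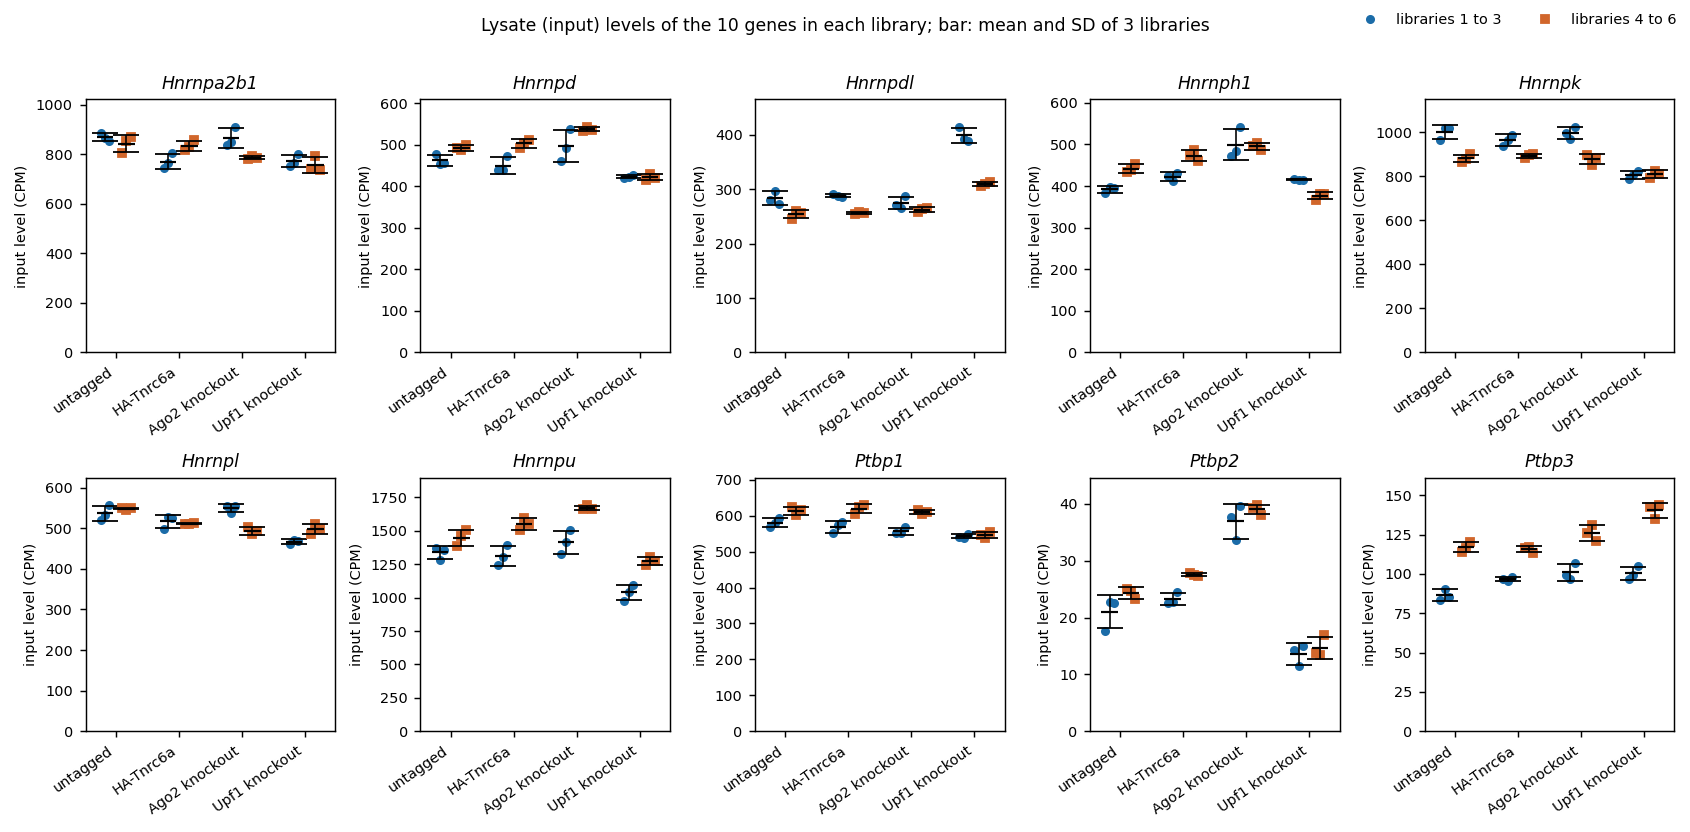
Input level in CPM (y axis, from 0) of each of the 10 genes in the 4 genotypes, 1 point per library, with blue circles for libraries 1 to 3, orange squares for libraries 4 to 6, and bars for the mean and SD of 3 libraries. Each panel has its own scale, and Ptbp2 ran from 11.4 CPM in an Upf1 knockout input to 39.7 CPM in an Ago2 knockout input.

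In inputs labelled Upf1 knockout against HA-Tnrc6a inputs, all 10 genes passed the test, 8 lower and 2 higher, in a comparison in which 58.6% of all tested genes passed (29% lower, 29.5% higher). Ptbp2 mRNA was lower by the most, and Hnrnpdl and Ptbp3 mRNA were higher. The changes of the other 7 genes were small, between -0.31 and -0.065 on the log2 scale. The median over the 10 genes was -0.14, against -0.018 over all genes. Changes were tested with edgeR's quasi-likelihood test, averaged over the 2 runs, with Benjamini-Hochberg adjustment over all genes.

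Ptbp2 in HA-Tnrc6a inputs was at 22.6, 22.7 and 24.4 CPM in libraries 1 to 3 and 27.8, 27.5 and 27.2 in libraries 4 to 6. In Upf1 knockout inputs it was at 14.3, 11.4 and 15.1 CPM and 13.8, 13.3 and 16.9 CPM. Every Upf1 knockout input lay below every HA-Tnrc6a input. The log2 fold change was -0.83 ± 0.061 (a ratio of 0.56, edgeR adjusted p = 2.5e-16), -0.78 ± 0.093 in libraries 1 to 3 and -0.88 ± 0.079 in libraries 4 to 6. The smallest count behind these values was 221, the fewest of any member. The summed level of 4 neural markers (Pax6, Tubb3, Map2, Elavl3) was 48.5 to 84.5 CPM in Upf1 knockout inputs and 71.3 to 99.4 CPM in HA-Tnrc6a inputs, with 2 of the 4 lower and 1 higher by the same test. Pax6 did not exceed 1.55 CPM in any input. The part of other cell types in the level of Ptbp2 was not tested, and in bulk RNA fewer cells of a type and less RNA per cell cannot be told apart.

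Hnrnpdl in HA-Tnrc6a inputs was at 292, 287 and 286 CPM and 254, 258 and 256 CPM in the 2 runs. Upf1 knockout inputs had 415, 393 and 389 CPM and 307, 309 and 314 CPM. They lay above HA-Tnrc6a in both runs without overlap, and libraries 1 to 3 were separated more widely. The log2 fold change was 0.37 ± 0.022 (ratio 1.30, adjusted p = 6.8e-20), and the 2 runs differed, at 0.46 ± 0.031 and 0.29 ± 0.031. Its overlapping neighbour Enoph1 was lower at -0.087.

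Ptbp3 was higher in Upf1 knockout inputs at 0.17 ± 0.028 (adjusted p = 9.3e-07) over both runs, and passed in libraries 4 to 6 alone but not in libraries 1 to 3 alone. In libraries 1 to 3 the inputs were at 96.8, 99.4 and 105 CPM against 96.8, 95.8 and 97.8 in HA-Tnrc6a, overlapping ranges. In libraries 4 to 6 they were at 142, 135 and 143 CPM against 116, 117 and 113, with no overlap. Ptbp1 was lower at -0.12 ± 0.022 (adjusted p = 1.0e-05), with a mean of 543 ± 5.22 against 568 ± 15.5 CPM and of 547 ± 8.22 against 619 ± 12.5 CPM. The PTB genes moved in different directions, with Ptbp2 at -0.83, Ptbp1 at -0.12 and Ptbp3 at 0.17.

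Hnrnpu, the most abundant of the genes by count, was at 978, 1044 and 1093 CPM in libraries 1 to 3 of the Upf1 knockout against 1245, 1299.9 and 1392 CPM in HA-Tnrc6a. In libraries 4 to 6 it was at 1240.4, 1306 and 1275 CPM against 1506, 1598 and 1547 CPM. The groups did not overlap in either run, and the change was -0.31 ± 0.027 (adjusted p = 7.6e-11). Hnrnpk was lower at -0.20 ± 0.022, Hnrnph1 at -0.17 ± 0.023, Hnrnpd at -0.17 ± 0.023, Hnrnpl at -0.090 ± 0.023 and Hnrnpa2b1 at -0.065 ± 0.024. Of these, Hnrnpa2b1 had an adjusted p of 0.018 and lost the call when any 1 of 6 libraries was left out. The change differed between runs for 6 of the 10 genes (Hnrnpd, Hnrnpdl, Hnrnph1, Hnrnpk, Hnrnpl and Ptbp3), against 11.6% of all genes. Hnrnph1 differed most, at -0.034 ± 0.032 in libraries 1 to 3 and -0.32 ± 0.032 in libraries 4 to 6. Hnrnpl stood at -0.16 ± 0.032 and -0.024 ± 0.032. With libraries 1 to 3 alone, 6 of the 10 genes passed. With library totals in place of TMM scaling, Hnrnpa2b1 at -0.023 (adjusted p = 0.39) and Hnrnpl at -0.048 (adjusted p = 0.059) did not pass. Of the overlapping neighbours, Rmi1 was lower at -0.16 as Hnrnpk was, Plppr3 was lower at -0.19 as Ptbp1 was, and Cox20 beside Hnrnpu (-0.017) and E130317F20Rik beside Ptbp1 (-0.12) did not pass.

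A list of 25 other hnRNP and PTB-partner genes gave 22 past the test in the same inputs, 7 higher and 15 lower. Of all genes 58.6% passed there (29.5% higher, 29% lower). The median of the 25 was -0.097, against -0.018 over all genes. Hnrnph3, a relative of Hnrnph1, was higher at 0.88 ± 0.038, the largest change on the list. Syncrip (hnRNP Q) was lower at -0.42 ± 0.024, Hnrnpab at -0.37 ± 0.023 and Pcbp2, a C-rich RNA binder like Hnrnpk, at -0.34 ± 0.021.

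**Figure D2:**
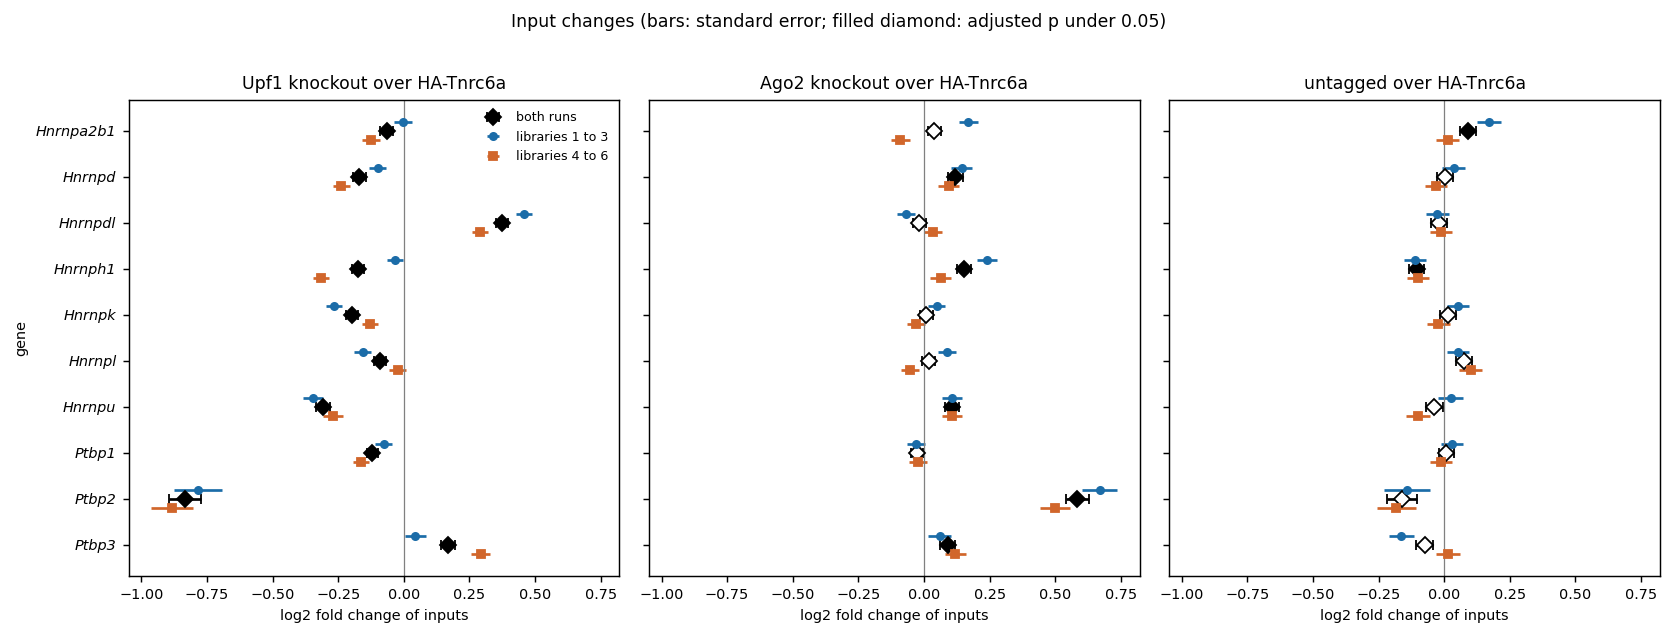
Log2 fold change of the inputs (x axis) for each of the 10 genes (y axis) in Upf1 knockout, Ago2 knockout and untagged cells over HA-Tnrc6a cells, with diamonds for both runs, filled where the adjusted p was under 0.05, circles and squares for each run, and bars for the standard error. Ptbp2 stands apart at -0.83 in Upf1 knockout and 0.58 in Ago2 knockout inputs.

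In Ago2 knockout inputs, 5 of the 10 genes passed, all higher, where 30.9% of all tested genes passed (15.7% higher). Ptbp2 was at 37.7, 33.6 and 39.5 CPM in libraries 1 to 3 and 39.3, 39.7 and 38.1 CPM in libraries 4 to 6, above every HA-Tnrc6a input. Its log2 fold change was 0.58 ± 0.045 (adjusted p = 1.6e-14), 0.67 ± 0.068 and 0.50 ± 0.058 in the runs. The neural markers summed to 91.4 to 123 CPM in these inputs, with 2 of the 4 higher and 1 lower, and their part in the value of Ptbp2 was not tested. The other 4 changes were small, at 0.15 ± 0.028 for Hnrnph1, 0.12 ± 0.029 for Hnrnpd, 0.11 ± 0.027 for Hnrnpu and 0.090 ± 0.030 for Ptbp3. Ptbp3 lost the call (adjusted p = 0.073) without library 5 of the Ago2 knockout inputs. With libraries 1 to 3 alone Hnrnpu (adjusted p = 0.095) and Ptbp3 (0.45) did not pass, nor with all 48 libraries in 1 fit (0.12 and 0.14), and with libraries 4 to 6 alone Hnrnph1 did not pass (0.057). Hnrnph1 and Hnrnpa2b1 differed between runs (5.94% of all genes did), Hnrnph1 at 0.24 ± 0.039 and 0.063 ± 0.039, and Hnrnpa2b1 at 0.17 ± 0.036 and -0.090 ± 0.036. Fitted in edgeR with each run alone, Hnrnpa2b1 passed in opposite directions. It was at 0.17 (adjusted p = 0.0042) in libraries 1 to 3 and -0.086 (adjusted p = 0.0085) in libraries 4 to 6. Over both runs Hnrnpa2b1 (0.039 ± 0.025), Ptbp1 (-0.026 ± 0.024), Hnrnpdl (-0.017 ± 0.024), Hnrnpl (0.017 ± 0.024) and Hnrnpk (0.0091 ± 0.024) did not pass. Of the 25 other genes 7 passed, 3 higher and 4 lower. Hnrnpul1 at 0.33 ± 0.024 and Tia1 at -0.20 ± 0.051 had the largest changes.

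Between the knockouts, Ptbp2 in Upf1 knockout over Ago2 knockout inputs had a log2 difference of -1.42 ± 0.060 (ratio 0.37, adjusted p = 9.0e-23), -1.47 ± 0.090 and -1.38 ± 0.078 in the runs. In that comparison all 10 genes passed, 8 lower and 2 higher (62.3% of all genes passed, 31.4% lower and 30.9% higher), and Ptbp2 was the only one of the 10 past 2-fold. Hnrnpu followed at -0.42 ± 0.028 and Hnrnpdl at 0.39 ± 0.026. Ptbp3 at 0.074 ± 0.031 lost its call in 7 of 12 fits that each left out 1 library. The runs differed for 5 genes, Hnrnpa2b1, Hnrnpdl, Hnrnpk, Hnrnpl and Ptbp3, against 13.1% of all genes. Library totals ended the calls of Hnrnpa2b1 (-0.051, adjusted p = 0.060) and Ptbp1 (-0.040, adjusted p = 0.12), and RLE size factors that of Ptbp3 (0.065, adjusted p = 0.063). Both knockouts were compared with the same HA-Tnrc6a inputs, so the 2 sets of changes against them are not independent.

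Untagged inputs differed little from HA-Tnrc6a inputs. Hnrnpa2b1 at 0.091 ± 0.031 (adjusted p = 0.047) and Hnrnph1 at -0.11 ± 0.030 (adjusted p = 0.016) passed, 2 of 10 where 15.4% of all genes passed (7.67% higher, 7.74% lower). Hnrnpa2b1 lost its call in 8 of 12 fits that left out 1 library and Hnrnph1 in 1, and those fits gave 0 to 3 calls, with 0 without library 5 of the HA-Tnrc6a inputs. The change differed between runs for 3.4% of all genes here, and the 10 genes were not among them. Ptbp2 in untagged inputs was at 17.7, 22.8 and 22.6 CPM and 25.0, 24.7 and 23.2 CPM, and its change of -0.16 ± 0.057 did not pass (adjusted p = 0.055). It passed in 2 of 12 fits that left out 1 library, without library 2 or without library 3 of the untagged inputs, with adjusted p of 0.030 and 0.039. Over the 12 fits the change of Ptbp2 ran from -0.19 to -0.11 and its edgeR adjusted p reached 0.15. Its order over the genotypes was Ago2 knockout, HA-Tnrc6a, untagged and Upf1 knockout, in both runs, and the neighbours HA-Tnrc6a and untagged overlapped in libraries 1 to 3.

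Beads also carried RNA without a tag. In untagged cells 7 of the 10 genes differed between IP and input, 5 higher and 2 lower in the IP, where 35.7% of all genes did (18% higher). Hnrnpdl had the largest difference of the 10. Its inputs were at 281, 297 and 273 CPM and 246, 260.1 and 256 CPM, and its IPs at 549, 622 and 579.8 CPM and 610.0, 461 and 516 CPM. Every IP lay above every input, and the log2 ratio was 1.04 ± 0.057 (ratio 2.06, adjusted p = 1.2e-11). Hnrnph1 was higher at 0.33 ± 0.045, Hnrnpa2b1 at 0.25 ± 0.047, Hnrnpd at 0.22 ± 0.044 and Hnrnpl at 0.16 ± 0.039. Ptbp3 was lower at -0.42 ± 0.056 and Ptbp1 at -0.11 ± 0.039, the latter not past the test in 6 of 12 fits that each left out 1 library. The ratio differed between runs for 2.86% of all genes, and the 10 genes were not among them. Ptbp2 at 0.080 ± 0.073, Hnrnpk at 0.017 ± 0.046 and Hnrnpu at -0.053 ± 0.040 did not pass. Scaling to library totals in place of TMM moved the median of all genes from -0.026 to -0.20 here and the share of higher calls from 50.3% to 20.9%. Under it Hnrnpk was lower at -0.15 and Hnrnpl no longer passed at -0.011, so these 2 directions rest on the scaling. Hnrnpa2b1 (0.077) and Hnrnpd (0.047) also no longer passed, and Hnrnpu passed as lower at -0.22. These untagged ratios are the background against which the tag is read.

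Recovery with the tag was measured as the log2 IP-over-input ratio of HA-Tnrc6a cells less that of untagged cells. Levels are shares of each library, so recovered less means a smaller share relative to input than in the cells compared with. Amounts of RNA on the beads cannot be read from them. Of the 10 genes 9 passed, 7 recovered less and 2 recovered more, where 62% of all genes passed (32.2% less, 29.8% more). Ptbp2 was recovered more, Ptbp3 slightly more, and the 7 Hnrnp genes less. The median of the 10 was -0.54, against -0.097 over all genes. All 9 calls held in each of the 24 fits that left out 1 library. With libraries 1 to 3 alone Hnrnph1 did not pass (-0.24, adjusted p = 0.069), and with libraries 4 to 6 alone all 10 genes passed, Ptbp1 at 0.18 (adjusted p = 0.016).

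Ptbp2 in HA-Tnrc6a IPs was at 66.0, 70.6 and 64.7 CPM and 77.0, 66.8 and 62.4 CPM, against 19.5, 22.8 and 22.0 CPM and 27.3, 25.2 and 28.3 CPM in untagged IPs. The tagged IPs were all above the untagged IPs. The log2 IP-over-input ratio, taken as the mean log2 IP level less the mean log2 input level, was 1.53 ± 0.091 and 1.31 ± 0.16 in tagged cells (SD of 3 IPs and 3 inputs combined). In untagged cells it was 0.035 ± 0.24 and 0.15 ± 0.10. The fitted difference was 1.35 ± 0.092 (ratio 2.55, adjusted p = 7.7e-15), 1.49 ± 0.14 and 1.21 ± 0.12 in the runs.

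Ptbp3 IPs were at 95.4, 94.2 and 94.9 CPM and 98.3, 96.8 and 103 CPM in tagged cells and 58.6, 69.4 and 75.9 CPM and 82.1, 83.0 and 88.4 CPM in untagged cells, with no overlap within either run. Its difference was 0.30 ± 0.069 (adjusted p = 3.9e-04), and the tagged ratio itself was not above 0, at -0.030 ± 0.018 and -0.22 ± 0.052, against -0.35 ± 0.20 and -0.47 ± 0.070 in untagged cells. With library totals its difference was 0.14 and did not pass (adjusted p = 0.12). Ptbp1 differed by 0.066 ± 0.057 (adjusted p = 0.33), with -0.11 ± 0.081 in libraries 1 to 3 and 0.24 ± 0.081 in libraries 4 to 6, and with library totals it was at -0.092.

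Hnrnpa2b1 had the lowest recovery difference. Its IPs were at 469, 497 and 491 CPM and 483, 489 and 518 CPM in tagged cells against 989, 1096 and 1031 CPM and 1099, 910.0 and 1003 CPM in untagged cells. The tagged IPs were all below the untagged ones, and the difference was -0.95 ± 0.066 (ratio 0.52, adjusted p = 1.0e-14). Hnrnpu followed at -0.79 ± 0.068, Hnrnpk at -0.78 ± 0.075, Hnrnpl at -0.66 ± 0.063, Hnrnpdl at -0.64 ± 0.079, Hnrnpd at -0.44 ± 0.062 and Hnrnph1 at -0.39 ± 0.063. Hnrnpdl still exceeded its input in tagged IPs, at 0.46 ± 0.089 and 0.34 ± 0.13, but less than in untagged IPs, at 1.04 ± 0.11 and 1.05 ± 0.21. Tnrc6a RNA took 34244, 26128 and 19271 CPM and 12657, 8841 and 10555 CPM of the tagged IPs. Library totals moved the median of all genes from -0.097 to -0.25, and under them the differences of the 7 genes kept their sign and their calls. The neighbours Cox20 of Hnrnpu (-1.15) and Rmi1 of Hnrnpk (-0.52) were recovered less as well, Plppr3 of Ptbp1 likewise (-0.19), and Enoph1 of Hnrnpdl was recovered more (0.27).

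Among the 25 other hnRNP and PTB-partner genes 23 passed, 20 recovered less and 3 more. Of all genes 62% passed there (32.2% less, 29.8% more). The median of the 25 was -0.59, against -0.097 over all genes. The 3 recovered more were Hnrnpul1 at 1.54 ± 0.071, Raver1, a PTB co-repressor, at 0.58 ± 0.084, and Pcbp3 at 0.57 ± 0.080. The lowest was Rbmx (hnRNP G) at -1.23 ± 0.15.

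**Figure D3:**
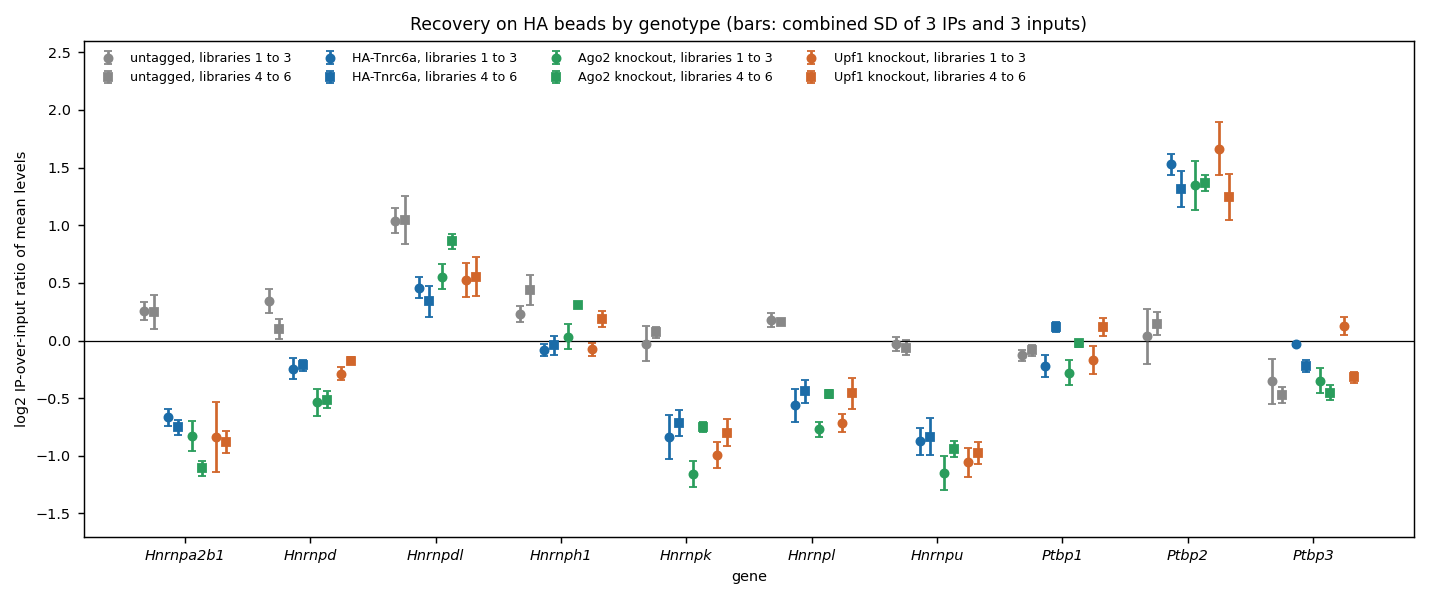
Log2 IP-over-input ratio (y axis), the mean log2 IP level less the mean log2 input level, of each of the 10 genes (x axis). Colours mark the genotype, circles libraries 1 to 3, squares libraries 4 to 6, and bars the combined SD of 3 IPs and 3 inputs. Ptbp2 lies near 0 in untagged cells and between 1.25 and 1.66 in the 3 tagged genotypes, whereas Hnrnpa2b1 lies above 0 only in untagged cells.

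In Ago2 knockout cells the recovery of Ptbp2 did not differ detectably from that in HA-Tnrc6a cells. Its IPs were at 103, 82.3 and 96.8 CPM and 101, 96.6 and 105 CPM, higher than the HA-Tnrc6a IPs as the inputs were, and the difference of ratios was -0.067 ± 0.078 (adjusted p = 0.61). Comparing IPs alone, without inputs, gave 0.55 (edgeR adjusted p = 2.0e-07). Tnrc6a mRNA was higher in Ago2 knockout than in HA-Tnrc6a inputs, at 0.51 ± 0.032 (edgeR adjusted p = 1.7e-17). In libraries 1 to 3 it took 50535 ± 8902 CPM of Ago2 knockout IPs against 26548 ± 7495 of HA-Tnrc6a IPs (mean ± SD). In libraries 4 to 6 it took 13254 ± 2376 against 10684 ± 1911 CPM. The part of Tnrc6a level in the differences of recovery was not tested. Of the 10 genes 5 passed in the comparison of ratios, where 21.3% of all genes passed (9.09% more, 12.3% less). Hnrnpd was recovered less at -0.30 ± 0.064, Ptbp3 at -0.28 ± 0.059 and Hnrnpa2b1 at -0.26 ± 0.066, and Hnrnpdl at 0.30 ± 0.067 and Hnrnph1 at 0.23 ± 0.062 were recovered more.

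Hnrnpdl IPs in Ago2 knockout cells were at 432, 384 and 396 CPM in libraries 1 to 3, among the HA-Tnrc6a values of 418, 400.4 and 371. In libraries 4 to 6 they were at 488, 455 and 487 CPM, above the HA-Tnrc6a values of 360.3, 307 and 306. Its difference was 0.10 ± 0.10 and 0.51 ± 0.094 in the runs. Hnrnpa2b1 was likewise at -0.16 ± 0.094 and -0.36 ± 0.093, whereas Hnrnpd was at -0.30 ± 0.091 and -0.30 ± 0.090. With libraries 1 to 3 alone 1 gene passed. Leaving out library 1 of the HA-Tnrc6a IPs gave 8 calls, adding Hnrnpk, Hnrnpl and Hnrnpu, all recovered less. Hnrnpk and Hnrnpu also passed with DESeq2, at -0.20 (adjusted p = 0.018) and -0.21 (adjusted p = 0.019). Of the 25 other genes 6 passed, all recovered less, where 21.3% of all genes passed (12.3% less). Hnrnpul1 at -0.54 ± 0.072 and Hnrnpc at -0.31 ± 0.085 were at the extreme.

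**Figure D4:**
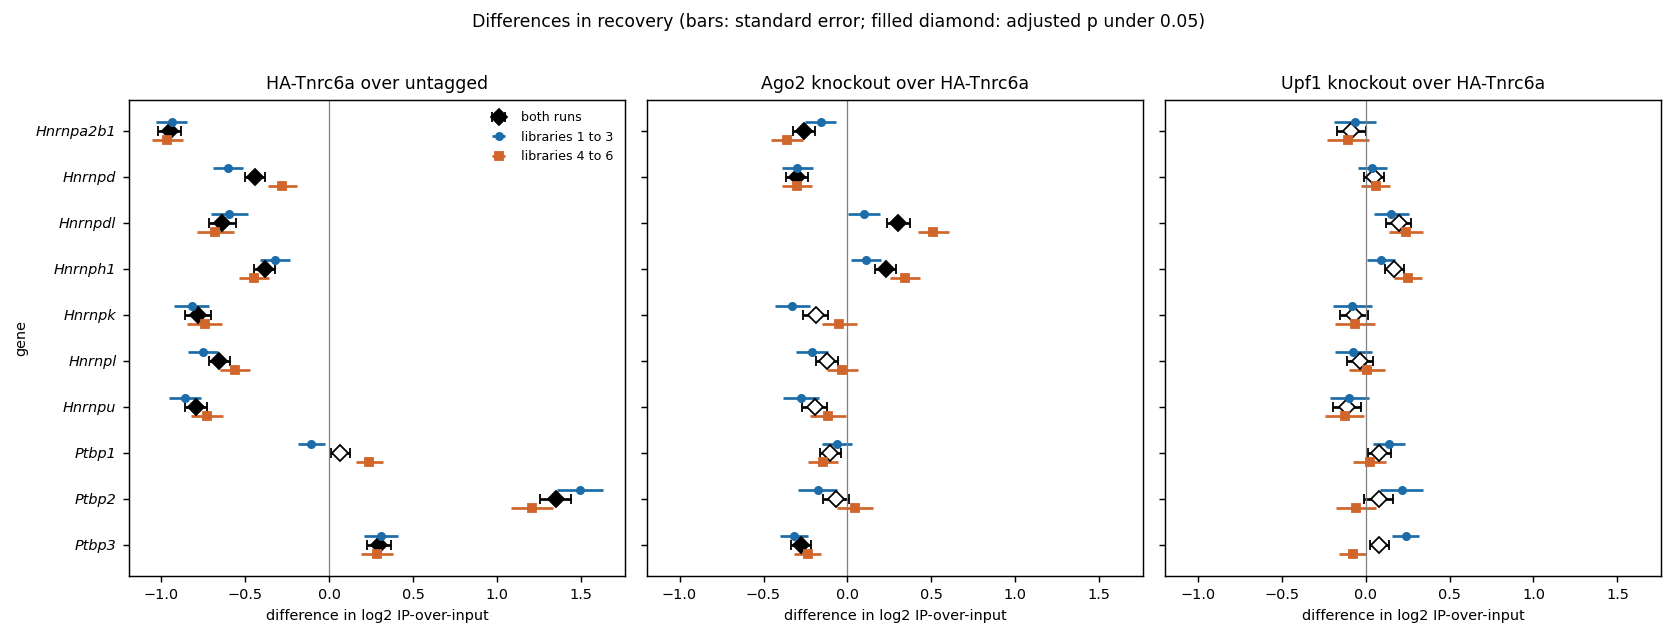
Difference in log2 IP-over-input ratio (x axis) for each of the 10 genes (y axis) between HA-Tnrc6a and untagged cells and between each knockout and HA-Tnrc6a cells, with diamonds for both runs, filled where the adjusted p was under 0.05, circles and squares for each run, and bars for the standard error. The diamonds of the first panel span -0.95 to 1.35, and those of the knockout panels span -0.30 to 0.30.

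In cells labelled Upf1 knockout 0 of the 10 genes passed in edgeR's test of recovery against HA-Tnrc6a, where 4.49% of all genes did (2.92% more, 1.57% less). At an unadjusted p under 0.05 there were 2, and DESeq2 called 1, Hnrnph1 at 0.15 (adjusted p = 0.016). The 10 differences lay between -0.11 for Hnrnpu and 0.20 ± 0.072 for Hnrnpdl. Ptbp2 IPs were at 40.0, 44.0 and 44.9 CPM and 36.9, 34.5 and 32.9 CPM, below all HA-Tnrc6a IPs as the inputs were, and the difference of ratios was 0.078 ± 0.088 (adjusted p = 0.73). Without inputs the IPs alone differed by -0.80 (edgeR adjusted p = 1.3e-09). Hnrnpdl IPs were at 639, 559 and 529 CPM and 514, 448 and 409 CPM, and alone gave 0.53 (adjusted p = 4.0e-06). IPs alone called 6 of the 10 genes. The share of all genes called with IPs alone is not given here, so that count does not single out the 10 genes. Among the 25 other genes 1 passed in the test of ratios, Raver1 at 0.43 ± 0.083.

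Between the knockouts, 2 of the 10 genes were recovered more in Upf1 than in Ago2 knockout cells, Ptbp3 at 0.34 ± 0.061 and Hnrnpd at 0.33 ± 0.060, where 24.4% of all genes passed (13.5% more). Ptbp3 was at 0.56 ± 0.088 in libraries 1 to 3 and 0.12 ± 0.085 in libraries 4 to 6. Ptbp2 was at 0.12 ± 0.088 (adjusted p = 0.35). Ptbp1 did not pass at 0.16 ± 0.065 and passed with DESeq2 at 0.18 (adjusted p = 0.013). Scaling to library totals moved the share of higher calls over all genes from 55.4% to 36.6% here, and from 65.1% to 22.4% for Upf1 knockout over HA-Tnrc6a. Under it Ptbp3 was at 0.26 and Hnrnpd at 0.25, and Hnrnpdl (-0.21) and Hnrnph1 (-0.16) passed as recovered less.

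Over the 16 means of genotype, fraction and run, the mean log2 levels of Hnrnpa2b1, Hnrnpd, Hnrnpk, Hnrnpl and Hnrnpu followed each other, with Pearson's r of 0.86 to 0.97 for their 10 pairs. Ptbp2 ran against each of the 5, at -0.74 to -0.51. Ptbp1, Ptbp2 and Ptbp3 did not follow one another closely, with -0.14 for Ptbp1 and Ptbp2, 0.32 for Ptbp1 and Ptbp3 and -0.23 for Ptbp2 and Ptbp3. Hnrnpd and Hnrnpdl were at -0.31. These r values describe points that share libraries and mix inputs with IPs. Among 6272 other genes with a mean log2 CPM of at least 5, the pattern nearest to Ptbp1 was that of Mcam (r = 0.92). Fbxo31 was nearest to Ptbp2 (0.97), Mtmr2 to Ptbp3 (0.91) and Pias1 to Hnrnpdl (0.95), over the same 16 means.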

How the data were processed

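RNA of 48 libraries was analysed from 1 deposited table of 20171 genes. The authors deposited raw counts per gene and library, per the file headers, and a gene length in bases. A further 48 columns, headed as scaled values, were not used. Base calling with bcl2fastq 2.20, alignment with STAR 2.7.3a and the build GRCm38 are named in the submitters' processing notes, and the counter is not given in the sources used here. Multi-mapping and strand settings are likewise not given, and they could move genes with close copies or overlapping neighbours.

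Counts were tested with edgeR 4.0.16 (limma 3.58.1, R 4.3.3): TMM, filterByExpr with a minimum count of 10, robust quasi-likelihood F-tests (two-sided), 1 coefficient per group and run, contrasts averaged over the 2 runs, and Benjamini-Hochberg adjustment over all genes at 0.05. Each fit held the libraries of its own comparison. CPM are counts scaled by TMM over the 48 libraries. Log2 levels used a prior count of 2. Log2 IP-over-input ratios by genotype and run are mean log2 levels of IPs less those of inputs, and their errors combine both SDs. The rule for named genes takes all 10 members, the targeted genes, the largest changes of the list of 25 and the most similar genes. The members and lists were chosen with earlier results of these data known, and the marker lists likewise.

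Libraries of a group differed by more than sampling noise (chi-square per degree of freedom 1.96 to 36.2 over 48 pairs), so all were counted. Depth sets the counting error, which leaves out copies made by PCR, since no molecular identifiers are named. Alternatives were RLE factors or library totals, no filter, each run alone, all 48 libraries in 1 fit, a replicate block, DESeq2 1.42.0, IPs without inputs and 1 library left out. The fits were tested on simulated data with the same spread set for every gene, fraction and run. The uneven spread of the real libraries was not covered by that test. Promoters come from RefSeq on GRCm38.p6. Proteins are not used here.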

Additional observations from a re-analysis of the deposited data

Results flagged for a closer look

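Of 80 groups of 6 libraries (10 genes, 8 combinations of genotype and fraction), 3 held a library whose gap to the nearest other exceeded Dixon's critical share of the range, where chance flags about 1 in 20. All 3 concerned Ptbp2, the member with the fewest counts, and in each the library was the lowest of its group. Library 1 of the untagged inputs was at 17.7 CPM with the other 5 between 22.6 and 25.0. Library 2 of the Ago2 knockout inputs was at 33.6 CPM with the others between 37.7 and 39.7, and library 2 of the Ago2 knockout IPs at 82.3 CPM with the others between 96.6 and 104.6. Ptbp2 in Ago2 knockout inputs passed its test in each of the 12 fits that left out 1 library.

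Changes that differed between the runs were found in 13 of 90 tests (10 genes in 9 comparisons), given here as libraries 4 to 6 less libraries 1 to 3. In Upf1 knockout inputs over HA-Tnrc6a they were -0.14 for Hnrnpd, -0.17 for Hnrnpdl, -0.28 for Hnrnph1, 0.14 for Hnrnpk, 0.13 for Hnrnpl and 0.25 for Ptbp3. In Ago2 knockout inputs they were -0.26 for Hnrnpa2b1 and -0.18 for Hnrnph1. In Upf1 over Ago2 knockout inputs they were 0.15 for Hnrnpa2b1, -0.26 for Hnrnpdl, 0.23 for Hnrnpk, 0.29 for Hnrnpl and 0.21 for Ptbp3. These 3 comparisons share inputs, and 11.6%, 5.94% and 13.1% of all genes differed between the runs in them. Ptbp3 and Hnrnph1 in Upf1 knockout inputs passed in libraries 4 to 6 only, where their adjusted p were 5.1e-09 and 9.1e-12, against 0.41 and 0.41 in libraries 1 to 3. The runs also differ in depth, and the part of depth in these differences was not tested.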

How the results depend on the processing

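The number of the 10 genes called was 10 in Upf1 knockout inputs (6 with libraries 1 to 3 alone), 5 in Ago2 knockout inputs (3 with all 48 libraries in 1 fit), and 2 in untagged inputs (1 with library totals, 0 with libraries 1 to 3 alone, 4 with libraries 4 to 6 alone, 0 with all 48 libraries). It was 7 for untagged IP over input and 5 for recovery in the Ago2 knockout (4 and 1 with libraries 1 to 3 alone), 0 for recovery in the Upf1 knockout (6 with IPs alone, 1 with DESeq2) and 2 for Upf1 over Ago2 knockout recovery (4 with library totals, 1 with libraries 1 to 3 alone, 5 with IPs alone). Over all genes, library totals gave 2805 calls in untagged inputs (2990 with TMM) and 5114 for Upf1 over Ago2 knockout recovery (4878 with TMM). For the other settings the share over all genes is not given here. A change in these counts therefore does not single out the 10 genes. Fewer libraries entered the fits of 1 run, and the cause was otherwise not tested. Leaving out 1 library gave 9 to 10, 4 to 5, 0 to 3 and 9 to 10 calls for the inputs (Upf1 knockout, Ago2 knockout, untagged, Upf1 over Ago2 knockout), 6 to 7 for untagged IPs, 9 for recovery with the tag, 5 to 8 in the Ago2 knockout, 0 in the Upf1 knockout and 2 to 3 between them. Signs turned for Hnrnpa2b1 in Ago2 knockout inputs (-0.086, libraries 4 to 6 alone), Hnrnpl and Ptbp3 in Upf1 over Ago2 knockout inputs (0.032 with libraries 4 to 6 and -0.010 with libraries 1 to 3 alone), and Hnrnpk and Hnrnpl in untagged IPs (-0.15 and -0.011, library totals). With IPs alone, which leave out the input change, they turned for Ptbp2 in all 3 knockout recoveries (0.55 in Ago2 knockout, -0.80 in Upf1 knockout, -1.32 between them), Hnrnpd in Upf1 knockout (-0.16), and Hnrnpdl (0.24) and Hnrnpu (-0.37) between them. Of 760 values under the planned settings 677 kept their side of the threshold and direction, counting as kept a change of sign that passed in neither setting. The replicate block gave 10 calls in Upf1 knockout inputs, 3 in untagged inputs (adding Ptbp2, adjusted p = 0.034), 7 in Ago2 knockout recovery (adding Hnrnpk and Hnrnpu, both 0.045) and 3 in Upf1 over Ago2 knockout recovery (adding Ptbp1, 0.033). The labels do not say that a number marks a shared dish or day. Same-numbered deviations all correlated above 0.1 in 0 of 28 pairs of groups, and in 3 of 56 within a run. The numbers were therefore not taken as pairs. The replicate block fitted 1 effect per number for all groups, so a pairing of each IP with its own input was not modelled. Untagged input and IP correlated at 0.51, 0.26 and 0.32 in libraries 1 to 3, and at 0.042, 0.038 and 0.064 in libraries 4 to 6. In the other genotypes these r values lay between -0.061 and 0.16. A library matched its own number best, among the 3 of its run, in 186 of 336 cases (55.4%). Chance alone would give 1 in 3, so the data hold a hint of pairing. An IP is taken from a lysate, but the labels do not say which input is its own. The recovery tests took IPs and inputs as unpaired. What pairing each IP with its own input would change in them was not tested.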
